A study of Mus musculus with 7 samples.

Results

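The Sox2 locus on mouse chromosome 3 was examined for binding of SOX2 itself and of FRA2 and JUND. Its members are all deposited binding events with a position from 34200000 to 34900000 (build mm9), a window of 700 kb around the Sox2 gene at 34548927 to 34551382. The window held 24 FRA2, 21 JUND and 24 SOX2 events, 69 of the 137595 events in the 3 tables. Chromatin immunoprecipitation followed by sequencing (ChIP-seq) measured FRA2 and JUND in 2 cell lines, STHdhQ7 and STHdhQ111 (Q7 and Q111 from here on), and SOX2 in Q7. Both lines derive from embryonic day 14 striatum of 129SvEv/CD1 mice. Q7 has the genotype HdhQ7/Q7, with a short glutamine tract in huntingtin, and Q111 has the genotype HdhQ111/Q111, with a tract expanded as in Huntington's disease. Cells of either line had under 15 passages, grew at 33 °C and spent the last 2 days at 39 °C to halt division. An IgG antibody was used in each line as well. Each group is 1 library that pools replicates 1 and 2, so no spread between replicates exists and a difference between Q7 and Q111 compares 2 libraries of 2 cell lines, not genotypes.

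SOX2 is a transcription factor with a high-mobility-group (HMG) box that keeps neural stem and progenitor cells undifferentiated, and it is known to bind regulatory DNA of its own gene. The gene has a single exon and depends on enhancers both next to it and far downstream, with different enhancers in embryonic stem cells and in neural cells. FRA2 (product of Fosl2) and JUND are basic leucine zipper proteins that pair with each other in the AP-1 transcription factor, and AP-1 is known to occupy many distal enhancers. In the GRCm38.p6 annotation, used here for names and order only, Sox2 lies inside the long noncoding RNA gene Sox2ot, and the nearest protein-coding genes are Dnajc19 on the side of lower coordinates and Atp11b on the other. The gene is read towards higher coordinates, so lower coordinates are called upstream.

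A SOX2 event lay 13 bp after the gene start, at position 34548940, with 33 SOX2 reads against 6.5 control reads. The promoter sequence around that start is therefore shown, taken from the RefSeq promoter table (GRCm38.p6, chr3:34649745-34650024, plus strand, 250 bases before the annotated start in lower case and the 30 bases after it in capitals).
Sox2 promoter: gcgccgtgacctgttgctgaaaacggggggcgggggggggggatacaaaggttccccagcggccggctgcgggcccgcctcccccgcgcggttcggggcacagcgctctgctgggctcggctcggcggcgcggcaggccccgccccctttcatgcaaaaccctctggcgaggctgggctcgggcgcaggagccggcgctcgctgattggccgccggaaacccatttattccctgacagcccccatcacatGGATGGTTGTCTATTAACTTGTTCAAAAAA
The gene spans 2467 bp in that annotation and 2456 bp in mm9, so the 2 starts need not be the same base. G and C made up 67.5% of the printed bases. The AP-1 motif TGANTCA had 0 matches in this window on either strand, and 7.46% of 32851 promoters of the same length held it. ACAAT, the only form of the SOX core that was searched, also had 0 matches on either strand, and 29.8% of promoters held it. Other forms of the SOX site were not searched, so their absence is not shown. These counts say only that the letters are not in these 280 bases. The FRA2, SOX2 and JUND events described below at 493, 467 and 429 bp upstream lie outside the printed bases.

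SOX2 events crowded around the Sox2 gene itself, each with a modest number of reads. There were 34.3 SOX2 events per Mb in the window, against 13.2 per Mb on chromosome 3 and 10.3 per Mb over all chromosomes (length taken between the first and last event). FRA2 had 34.3 per Mb against 25.2 over all chromosomes, and JUND 30 against 18.2. Of the 24 SOX2 events, 14 lay within 20 kb of the gene, between positions 34541696 and 34567567, a run of 25.9 kb that reached 7.23 kb upstream of the start and 16.2 kb past the end. This run was delimited after the positions were seen, so it is described and not tested as a group. The event at position 34558904 had 12 SOX2 events, itself included, within 10 kb on either side. Such a number was reached by 38 of the 26433 SOX2 events, and the median SOX2 event counted 2.

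**Figure D1:**
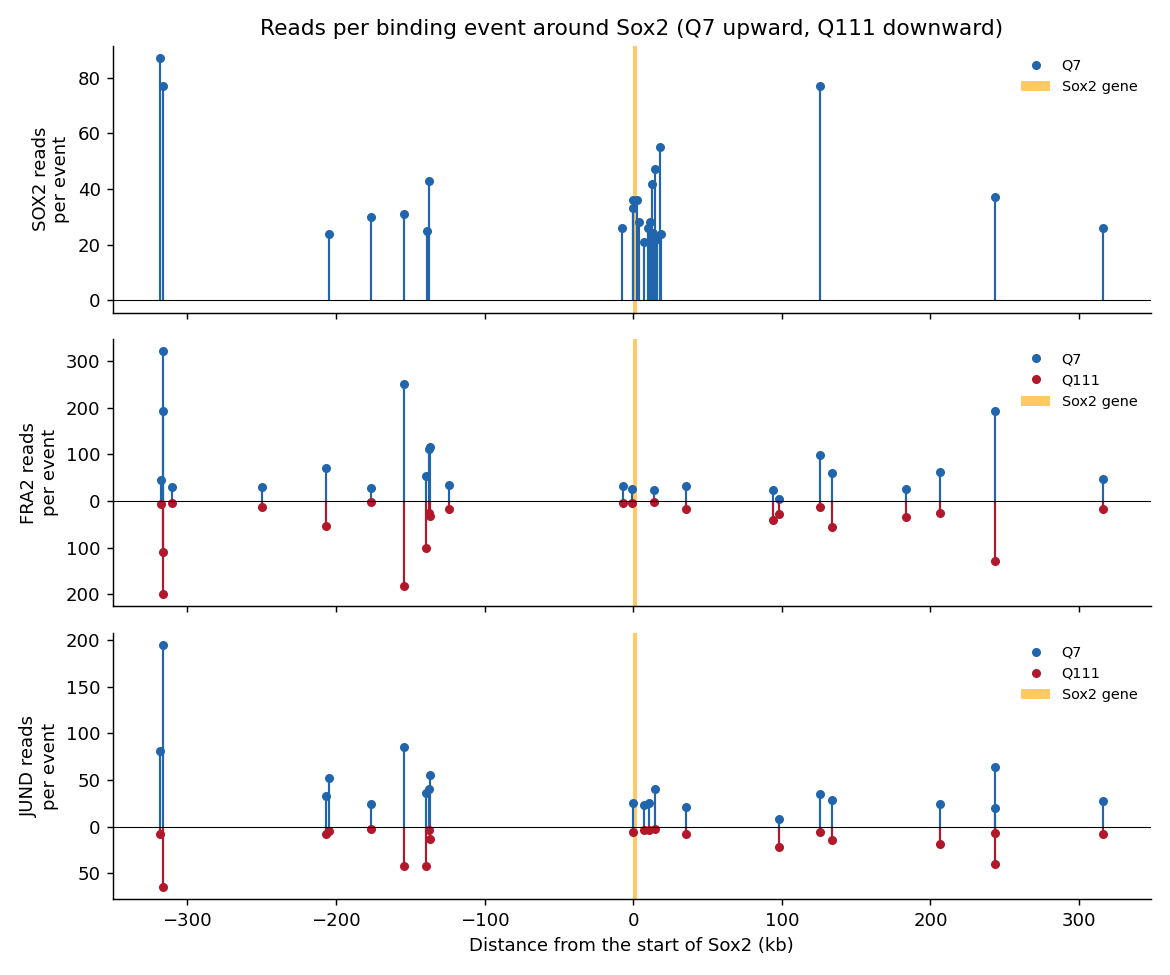
Reads per event (y axis, Q7 upward and Q111 downward, in reads as deposited) against distance from the start of Sox2 in kb (x axis), with 1 point per event and the gene in orange. The 14 SOX2 events of the run crowd around the gene with 21 to 55 reads each, while the highest FRA2 and JUND events stand over 130 kb away.

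Within the run the number of SOX2 reads per event was modest. Reads ranged from 21 to 55 with a median of 28, against a median of 33 over all SOX2 events and of 34 over the 10 events elsewhere in the window. The gene start has neighbours on either side, the event at 34548940 named above and one at 34548460, 467 bp upstream, with 36 reads over 5.4 control reads, a deposited ratio of 6.7. Downstream of the gene end, the events at 34551798 and 34552987 had 36 and 28 reads, with ratios of 8.3 and 25.9. Positions 34556044, 34558904 and 34559922 had 21, 26 and 28 reads. The strongest event of the run was farther out, at position 34566948, 18.0 kb from the start, with 55 reads over 3.2 control reads (ratio 17.0, percentile 79.6 among all SOX2 events). Position 34563272 had 47 reads (ratio 10.9), and 34561891 had 41.9 reads and the highest ratio of the window, 38.8, over 1.1 control reads. The most upstream event, at 34541696, had 26 reads and a ratio of 3.4. The 3 other events of the run had 22 to 24.1 reads.

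Outside the run, 3 SOX2 events had more reads than any within it. A pair stood near the upstream edge of the window, at 34230854 with 87 reads (ratio 20.1) and at 34232711 with 77 reads (ratio 17.8). The third, at 34674839, 123.5 kb past the gene end, also had 77 reads over 4.3 control reads. These correspond to percentiles 91.5, 89.3 and 89.3 of SOX2 reads. The other 7 had 24 to 43 reads, led by 34411887 with 43 reads (ratio 19.9).

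The SOX2 events were set beside the nearest AP-1 events. A FRA2 or JUND event was within 100 bp of 13 of the 24 SOX2 events (54.2%, exact Clopper-Pearson 95% interval 32.8 to 74.4%), against 69.9% of all SOX2 events. In the run it was 5 of 14 (35.7%, 12.8 to 64.9%), and elsewhere in the window 8 of 10 (80.0%, 44.4 to 97.5%). The 2 intervals overlap, and no test was made, since events are not replicates and the division followed from the positions. With 1 kb as the limit the counts were 8 of 14 and 10 of 10, against 86.4% of all SOX2 events. FRA2 and JUND were both within 100 bp at 7 of the 24 SOX2 events (29.2%, 12.6 to 51.1%), against 48.5% of all SOX2 events. Of the 7, 1 was in the run, at 34548460 just upstream of the gene.

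Within 10 kb of the gene there were 2 FRA2 and 3 JUND events. In Q7 the FRA2 events had 31.3 and 25.6 reads, against a median of 30.9 over all FRA2 events, and the JUND events had 23 to 25 reads, against a median of 28. With the reads of both lines summed, they were at or below percentile 12.3 of their table, a sum to which Q111 gave 3.4 to 6 reads each. The promoter pair consisted of FRA2 at 34548434, 493 bp upstream of the start, and JUND at 34548498, 429 bp upstream. FRA2 had 25.6 Q7 reads and 5.0 Q111 reads there, and JUND 25 and 6, so both were higher in Q7. Their Q7 to Q111 folds were 4.90 (95% counting interval 2.03 to 17.9, exact binomial test, Benjamini-Hochberg adjusted p = 0.000471) and 4.12 (1.75 to 13.1, exact test, adjusted p = 0.00204). Folds here and below are scaled by the median over events present in both lines, which divides the Q111 over Q7 ratio by 1.03 for FRA2 and 1.05 for JUND. The adjustment covers all 64579 FRA2 or 46583 JUND events. A call needs both an adjusted p under 0.05 and a 2-fold difference. In bulk chromatin, binding in fewer cells and less binding per cell cannot be told apart.

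The other AP-1 events of the run showed the same direction. FRA2 at 34541744 had 31.3 Q7 reads and 3.4 Q111 reads, 8.42-fold higher in Q7 (3.33 to 54.5). JUND at 34556121 had 23 and 4 reads (5.49-fold, 2.07 to 24.0), and JUND at 34559856 had 25 and 4 (5.96-fold, 2.27 to 26.0). Each of these lies within 100 bp of a SOX2 event. A further FRA2 event at 34563207 lay 171 bp from a JUND event at 34563378. FRA2 had 24 Q7 reads and 3 Q111 reads, and JUND 40 and 3, 12.2-fold higher in Q7 (interval 4.46 to 70.8, adjusted p = 2.39e-08 by the same exact test). In all, 3 of 3 FRA2 and 4 of 4 JUND events of the run were called higher in Q7, against 21.3% and 23.3% over all events. The deposited marks list the 7 as present in Q7 alone, as they do for 26.7% of all FRA2 and 38.4% of all JUND events. An event so marked leans toward Q7 by the mark itself, so the direction of these calls is not independent of it.

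Control reads differed between the lines in the other direction at 6 of these 7 events. At the promoter pair the FRA2 table lists 6.0 scaled control reads for Q7 and 18.8 for Q111, and the JUND table lists 6.9 and 18.3. The Q111 values exceed the Q111 control of 98.7% of FRA2 events and 95.6% of JUND events. At JUND position 34556121 control reads were 4.6 and 19.4, and only at JUND 34559856 were they level, at 5.8 and 5.4. Over the run the mean Q111 control was 11.7 reads for FRA2 and 13.5 for JUND, against 5.71 and 7.19 over the whole tables. Summed control reads were higher in Q111 over the whole tables too, 1.33-fold for FRA2 and 1.66-fold for JUND. In the run these ratios were 2.97 and 2.33. In Q111 the FRA2 or JUND reads were below the control reads at 7 of 7 events of the run, a condition that held for 4.95% of all FRA2 and 7.11% of all JUND events. In Q7 they were below at 0 of 7. Whether the tables share a control library is not stated, so their control values cannot be counted as separate observations. The part of the control in the difference was not tested. Subtracting control reads leaves 0 reads in Q111 at these events and so can only raise the fold in favour of Q7.

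**Figure D2:**
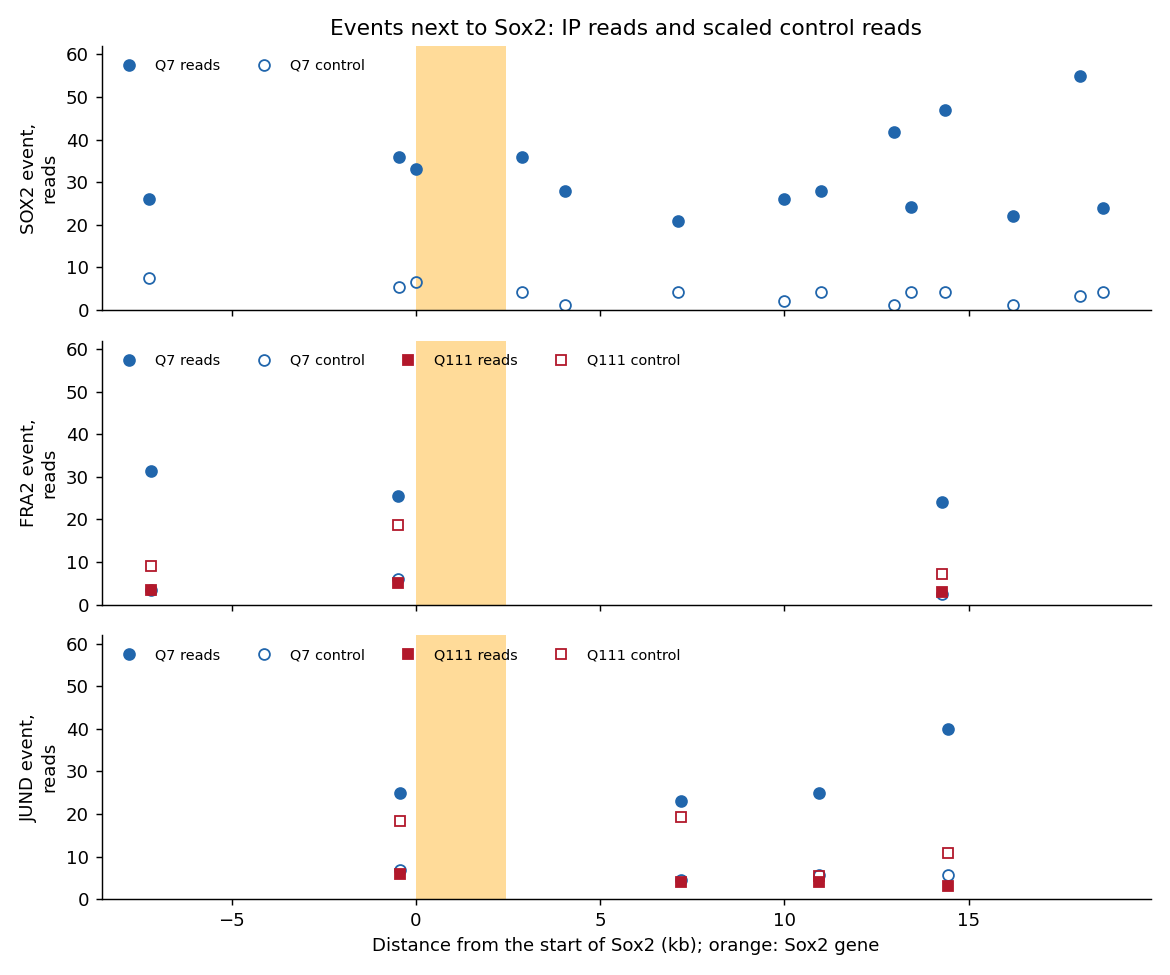
IP reads (filled) and scaled control reads (open) per event, in reads (y axis), against distance from the start of Sox2 in kb (x axis), for SOX2 in Q7 (circles) and for FRA2 and JUND in Q7 (circles) and Q111 (squares). At the 7 FRA2 and JUND events the Q7 reads lie at 23 to 40 and the Q111 reads at 3 to 6, below the open squares of the Q111 control.

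Over the whole window, binding of both AP-1 subunits was mostly higher in Q7. FRA2 was called higher in Q7 at 12 of 24 events, where 21.3% of all FRA2 events were called so, and higher in Q111 at 1, where the background was 23.3%. JUND was called higher in Q7 at 17 of 21 events against 23.3% of all JUND events, and higher in Q111 at 1 against 17.4%. In either direction, 44.6% of all FRA2 and 40.6% of all JUND events were called. The deposited marks list 11 FRA2 and 16 JUND events of the window as present in Q7 alone, and 26.7% and 38.4% over all events. By fold alone, without the p-value, the counts were again 12 and 17, with backgrounds of 22.6% and 25.0%, and 1 each higher in Q111, with backgrounds of 24.2% and 18.7%. The median log2 of Q111 over Q7 was -1.08 for FRA2 (0.00 over all events, 0.02 on chromosome 3) and -2.04 for JUND (-0.13 over all events, -0.10 on chromosome 3). Unscaled ratios of Q111 to Q7 reads ran from 0.0714 to 5.80 for FRA2 and from 0.075 to 2.75 for JUND. Summed over the window, FRA2 had 1906.3 Q7 reads and 1126.2 Q111 reads, and JUND 943 and 331.

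The direction was set beside that of AP-1 events near SOX2 over all chromosomes. Within 1 kb of a SOX2 event, FRA2 was called higher in Q7 at 9 of 14 events of the window and at 32.3% of such events in the whole table, and JUND at 14 of 16 and 32.4%. Farther from SOX2 the counts were 3 of 10 FRA2 and 3 of 5 JUND events, with 15.2% and 14.03% over the tables. Over the tables, calls higher in Q111 made up 5.07% of FRA2 and 4.81% of JUND events near SOX2, and 33.4% and 30.1% farther away. SOX2 was measured in Q7 alone, so this division is not independent of the line. Events marked present in Q111 alone were 5.52% of FRA2 and 7.75% of JUND events near SOX2, and 36.9% and 41.3% farther away. Without the run around the gene, 9 of 21 FRA2 and 13 of 17 JUND events were still called higher in Q7.

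**Figure D3:**
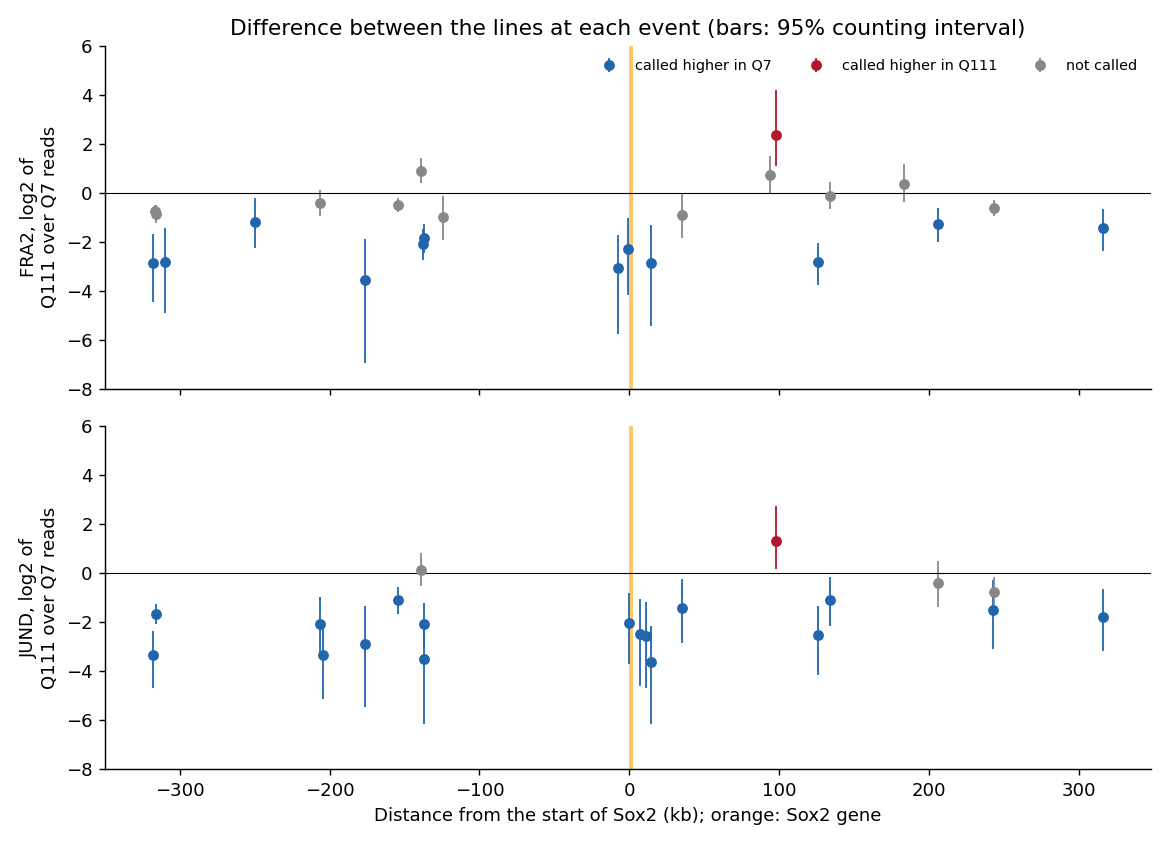
Log2 of Q111 over Q7 reads per event (y axis, scaled) against distance from the start of Sox2 in kb (x axis), with 95% counting intervals, coloured by call. Blue points, called higher in Q7, number 12 for FRA2 and 17 for JUND, and the single red point of each panel lies 98.0 kb downstream of the start.

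The AP-1 site with the most reads was at its upstream end, over 316 kb from Sox2. FRA2 at 34232617 had 320.8 Q7 reads and 199.2 Q111 reads, more in sum than 98% of FRA2 events, and FRA2 at 34232747, 130 bp on, had 192.2 and 108.8. Neither passed the fold limit, at 1.66-fold (95% interval from 1.39) and 1.82-fold (1.43 to 2.32) higher in Q7. JUND between them at 34232690 had 195 Q7 reads and 65 Q111 reads and was called, at 3.14-fold (2.37 to 4.24). The SOX2 event at 34232711 sits in the same place. Some 1.8 kb upstream, JUND at 34230860 fell 6 bp from the SOX2 event with 87 reads and had 81 Q7 reads and 8 Q111 reads, 10.1-fold higher in Q7 (5.15 to 25.5, exact binomial test, adjusted p = 3.72e-15). FRA2 at 34231103 had 44.4 and 5.9 reads there, 7.24-fold (3.21 to 21.7).

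Nearer to the gene on the upstream side, sites with many reads and small differences stood between sites with few reads in Q111. At 34394724 FRA2 had 251 Q7 reads and 183 Q111 reads, 1.42-fold (1.17 to 1.72) and not called, and JUND 5 bp away had 85 and 42, 2.11-fold (1.45 to 3.16) and called, a call lost with scaling by reads in events and with a dispersion of 0.05. SOX2 lay 34 bp from the FRA2 position with 31 reads. Nearer still, a pair of FRA2 events at 34411570 and 34411910 had 112 and 116 reads in Q7 and 26.9 and 33.1 in Q111, 4.24-fold and 3.58-fold higher in Q7. Their JUND partners at 34411587 and 34411948 had 40.2 and 55.8 reads in Q7 and 3.3 and 13.7 in Q111. This cluster differs from the FRA2 event only 1.7 kb upstream, at 34409865, where 53 Q7 reads and 102 Q111 reads gave a fold of 1.86 in favour of Q111 (1.32 to 2.65, exact binomial test, adjusted p = 0.000742), under the fold limit. JUND 13 bp away had 36 and 42 reads. At 34372426 FRA2 had 28 Q7 reads and 2 Q111 reads, 11.8-fold with an interval of 3.64 to 125.2, and JUND at 34372455 had 24 and 3. JUND at 34344407, with no FRA2 event within 1 kb, had 52 Q7 reads and 5 Q111 reads (10.04-fold, 4.40 to 35.1). FRA2 at 34342418, in contrast, had 70 and 54 reads and was not called. Its JUND partner 7 bp away, at 34342411, had 33 and 8 reads and was called, 4.14-fold higher in Q7 (1.96 to 10.9).

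Downstream of the gene, the pair that goes the other way stood 98.0 kb from the start. FRA2 at 34646935 had 5 Q7 reads and 29 Q111 reads, 5.19-fold higher in Q111 (2.15 to 18.6, exact binomial test, adjusted p = 0.000218). JUND at 34646924 had 8 and 22, 2.52-fold (1.12 to 6.80) with an adjusted p of 0.0498 in the same exact test. No SOX2 event lay within 27 kb of this pair. The JUND call is lost with a dispersion of 0.05, with a pseudocount of 5 reads, with control scaling and with control subtraction.

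Some 28 kb farther, FRA2, JUND and SOX2 met at 1 site with the opposite difference. FRA2 at 34674806 had 98 Q7 reads and 14 Q111 reads, 7.01-fold higher in Q7 (4.11 to 13.7, exact binomial test, adjusted p = 8.30e-16). JUND at 34674799 had 35 and 6 reads, 5.74-fold (2.55 to 17.8). The SOX2 event with 77 reads, at 34674839, is 33 bp from the FRA2 position. Beyond it, at 34682698 and without SOX2 within 7 kb, FRA2 was nearly even, with 59 Q7 reads and 56 Q111 reads (1.09-fold, 0.742 to 1.60). The JUND event beside it, at 34682673, had 29 and 14 reads and was called at 2.14-fold (adjusted p = 0.0452, exact binomial test), a call lost under 4 of the 9 alternatives that gave it a value. Its Q111 control was 11.9 reads against 1.2 in Q7.

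Toward the downstream edge, FRA2 at 34792489 had 193 Q7 reads and 129.9 Q111 reads (1.53-fold, 1.22 to 1.93), and JUND at 34792508 had 63.9 and 39.9 (1.68-fold, 1.12 to 2.56). Neither was called, since both missed the fold limit, with adjusted p of 0.000603 and 0.0282 in the exact binomial test. SOX2 with 37 reads lay 2 bp from JUND. The last site, at 34865168 for FRA2, 34865192 for JUND and 34865213 for SOX2, had 46 and 17 FRA2 reads, 27 and 8 JUND reads and 26 SOX2 reads. Both AP-1 differences were called higher in Q7, at 2.74-fold and 3.40-fold, and both calls are lost with an assumed dispersion of 0.05. The FRA2 and JUND events not named above had 20.1 to 62 reads in Q7.

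FRA2 and JUND shared 15 sites in the window, as pairs in which each event is the other's nearest within 100 bp. The direction was the same in 15 of 15 pairs, against 84.8% of all 35176 pairs, and 13 were lower in Q111 for both. In 6 pairs both events were called higher in Q7. For the 13 and the 6, no share over all pairs was computed, so neither count is read as an excess. JUND was shifted further toward Q7 than FRA2 in 11 of 15 pairs, against 57.4% of all pairs, with a median FRA2 minus JUND log2 difference of 0.52 (0.11 over all pairs). A test of this difference pair by pair (conditional exact test of the 4 read numbers, Benjamini-Hochberg over all pairs) called 0 of 15, against 0.216% of all pairs. Without adjustment, p was below 0.05 in 2 pairs, and the smallest adjusted p was 0.299, for FRA2 34232747 with JUND 34232690. A miss in this test does not show that the subunits differed equally. In Q7 the paired sites had a median of 2.02 FRA2 reads per JUND read, against 1.73 over all pairs, and the promoter pair had 1.02.

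**Figure D4:**
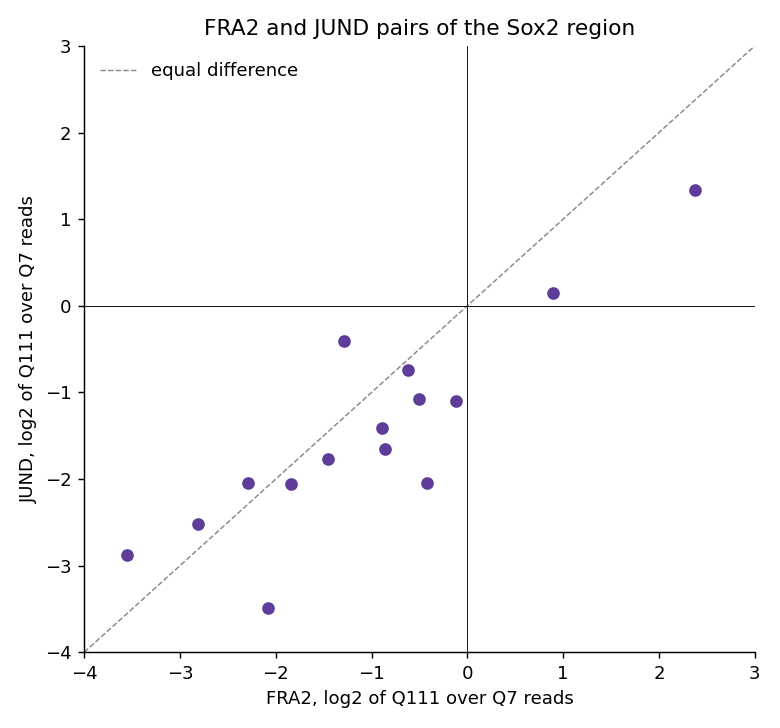
Log2 of Q111 over Q7 reads for JUND (y axis) against FRA2 (x axis) at the 15 paired sites, 1 point per pair, with a dashed line of equal difference. Of the 15 points, 13 lie in the lower left quadrant and 2 in the upper right, and 11 lie below the line.

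The edges of the window fell in stretches without events. On the upstream side the first events inside were SOX2 at 34230854, JUND at 34230860 and FRA2 at 34231103, and the nearest ones outside were FRA2 at 34130774 (39 reads in Q7, 30 in Q111) and JUND at 34130773 (29 and 30), which were not called. On the downstream side the last events inside were those at 34865168 to 34865213, and the first outside were FRA2 at 34948551 (21 Q7 reads and 7 Q111 reads, called higher in Q7) and JUND at 34965936 (76 and 65, not called).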

How the data were processed

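Reads were aligned with Bowtie 0.12.7 to mm9, per the submitters' processing notes. The deposited tables list 1 event per line, with a name that points to the GPS event caller, of which neither version nor settings are named in labels or headers. Replicates 1 and 2 were pooled per the labels. Per the file headers, values of the IP columns are expected counts, that is reads assigned to an event and not scaled, rounded here to whole reads for tests. Control columns are a deposited signal, whose steps show a fixed multiplier in each library. Which library served as control is not stated. The deposited ratio (IP over control) was used for SOX2, and deposited q-values, as −log10, for filters. 21 other value columns were not used.

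Reads in listed events, the only depth at hand, came to 3340554 (FRA2) and 1660158 (JUND) in Q7, 3498922 and 1609483 in Q111, and 1193914 for SOX2. Tests (Python 3.11.15, SciPy 1.17.1) were exact and two-sided, doubling the smaller tail, on all events with at least 20 reads, with folds from a pseudocount of 0.5 reads. They were checked on simulated reads with known folds and counting error alone, a check that does not cover spread between replicates. Intervals are 95% Clopper-Pearson intervals and cover counting error alone, since each group is 1 pooled library. They and the tests treat reads as independent. PCR copies of the same molecule are not, and would make the intervals too narrow. The members, the lists and the choice of tests were made with earlier results of these data known. Events named are those within 10 kb of the gene, the 10 with most reads per table, up to 5 called per direction and table with intervals farthest from 1, sites where the 3 proteins lie within 100 bp of each other, and the edges. FRA2 34563207 was added, with its values known, for its place in the run. No genome of mm9 was used, so events carry no annotation beyond Sox2.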

Additional observations from a re-analysis of the deposited data

How the results depend on the processing

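No paired analysis was possible because each group is 1 pooled library; for the same reason none could be left out. The direction held at each of the 45 FRA2 and JUND events wherever an alternative gave a value, except at JUND 34409878, not called, which went to -0.52 with control scaling. All alternatives with a value kept 9 of the 12 FRA2 and 12 of the 17 JUND calls higher in Q7, the 7 of the run among them, for which control subtraction is no check. These 7 had at most 43 reads over both lines, so a read minimum of 50 gave them no value. Most of them also had no value with −log10 q of at least 5. Control scaling moves every log2 fold by -0.36 (FRA2) and -0.66 (JUND), and took the JUND median to -2.71. With fewer events tested by construction, calls higher in Q7 numbered 6 of 16 FRA2 and 5 of 7 JUND events under a read minimum of 50. With −log10 q of at least 5 they numbered 11 of 12 for JUND. Within 100 kb of the gene they numbered 3 for FRA2 and 5 for JUND. No share over all events was computed under the read minimum or the q limit. Calls higher in Q111 became 2 for FRA2 with control subtraction or a fold limit of 1.5. They became 0 for FRA2 and JUND under the read minimum, the q limit, and with testing only within 1 kb of SOX2 (chosen after the data were seen, FRA2 median -1.96). For JUND they were also 0 with control scaling, control subtraction, a pseudocount of 5 or a dispersion of 0.05. The cause was not tested. SOX2 had 69.2 events per Mb within 100 kb of the gene and 17.1 with the q limit (5.99 over all chromosomes), and JUND 17.1 (9.92). The share of SOX2 events next to AP-1 was 75.0% with 1 kb as the limit and 80.0% without the run, both chosen after the data were seen. Read depth limits the events near the gene, with 3 to 6 reads in Q111.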
